A study of Mus musculus with 116 samples.

Results

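The HoxC cluster of the mouse holds 9 homeobox genes, Hoxc4, Hoxc5, Hoxc6, Hoxc8, Hoxc9, Hoxc10, Hoxc11, Hoxc12 and Hoxc13, and their read counts are described here in sorted neocortical cells with and without Eed. The members were chosen by their place in the genome, and they are 9 of the 53379 genes counted. RNA of pools of green, yellow or red cells, sorted from pooled cortices of mouse embryos and pups, had been sequenced by bulk Smart-Seq2, a full-length method for small inputs, at 4 ages. Of 116 libraries, the 92 with at least 1000000 uniquely aligned reads that made up at least 60% of all reads were used, and 55 of these were green. The green libraries numbered 5 in control-MADM, 4 in cKO-Eed-MADM and 8 in Eed-MADM on embryonic day 12.5 (E12.5), and in the same order 2, 4 and 2 on E13.5, 3, 4 and 5 on E16.5, and 5, 4 and 9 on the day of birth (P0), and 37 red and yellow libraries were spread over the same ages with 1 to 4 in a group. MADM (mosaic analysis with double markers) makes recombination between homologous chromosomes visible as color, and here its cassettes sit on chromosome 7, which also carries Eed. Emx1-Cre, active in the progenitors of cortical projection neurons and glia, drove recombination in all groups, the controls included, so that only cells of the Emx1 lineage were labelled. In control-MADM every color is Eed+/+. In Eed-MADM the tissue is Eed+/-, green cells are Eed-/-, red cells are Eed+/+ and yellow cells are Eed+/-. In cKO-Eed-MADM every color is Eed-/-, and so is the Emx1 lineage around it. In all 3 paradigms green cells carry both copies of the recombined part of chromosome 7 from the father, and red cells both from the mother. All libraries are labelled as strain CD1, while the paper describes the background of its MADM mice as a mix of CD1 and a C57BL strain. By its methods both sexes were used and cohorts were not split by sex. Replicates are pools of cortices, from 2 to 3 mice each by the methods of the paper, and the labels do not give the number for each library. The p-values thus measure the spread between pools.

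Hox genes encode transcription factors that give cells of the trunk, tail and limbs their position along the body, and within a cluster the order of the genes follows the order in which they are used from front to back. PRC2, the complex of Eed, Ezh2 and Suz12, places methyl groups on lysine 27 of histone H3 and keeps Hox clusters silent where they are not used. The forebrain lies in front of the region of Hox use, and its cells do not normally transcribe HoxC genes.

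The cluster spans chr15:102921103-103036852 (GRCm38), 115.75 kb, with all 9 members on the plus strand. The order begins with Hoxc13, the member used furthest towards the tail, and runs through Hoxc12, Hoxc11, Hoxc10, Hoxc9, Hoxc8, Hoxc6 and Hoxc5 to Hoxc4, the member used nearest to the head. Each member carries a homeobox of 180 bases, the part that encodes the DNA-binding homeodomain. The homeoboxes of 4 members are printed because the results turn on them: those at either end of the cluster, and the adjacent Hoxc10 and Hoxc9, of which only the latter gave reads in cKO-Eed-MADM green cells at E13.5. Capitals mark the 18 bases of the segment by which each box was located, in the part that encodes the recognition helix, and the sequences are those of GENCODE M21 transcripts on the plus strand.
Hoxc13 (exon 2 of 2, chr15:102927210-102927389): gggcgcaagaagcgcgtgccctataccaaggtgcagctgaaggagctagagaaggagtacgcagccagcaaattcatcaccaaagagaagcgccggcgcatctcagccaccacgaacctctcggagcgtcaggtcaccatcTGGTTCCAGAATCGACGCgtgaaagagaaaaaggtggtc
Hoxc10 (exon 2 of 2, chr15:102970848-102971027): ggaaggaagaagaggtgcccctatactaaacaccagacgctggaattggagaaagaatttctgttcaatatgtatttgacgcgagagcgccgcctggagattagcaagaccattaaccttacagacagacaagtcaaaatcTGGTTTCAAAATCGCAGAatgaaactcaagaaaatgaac
Hoxc9 (exon 3 of 3, chr15:102983930-102984109): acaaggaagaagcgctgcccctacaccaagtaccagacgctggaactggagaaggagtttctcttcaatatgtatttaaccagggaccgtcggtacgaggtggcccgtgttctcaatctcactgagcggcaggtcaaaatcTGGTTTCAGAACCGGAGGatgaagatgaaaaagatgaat
Hoxc4 (exon 2 of 2, chr15:103035663-103035842): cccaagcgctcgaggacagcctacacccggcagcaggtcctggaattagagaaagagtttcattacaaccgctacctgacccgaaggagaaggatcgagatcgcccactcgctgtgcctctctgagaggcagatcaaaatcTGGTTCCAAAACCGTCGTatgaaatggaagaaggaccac
Over the 36 pairs of members, 48.3% to 77.8% of the 180 bases were identical, with a median of 59.7%. Hoxc9 and Hoxc10 shared 71.7% of them, and the longest identical run in any pair was 20 bases. Most members could therefore be told apart by a read, and 5 of them held no stretch of 50 bases that occurs in another gene. The exceptions were Hoxc10 and Hoxc5, which share 119 such stretches (6.4% and 3.92% of their own) because an annotated exon of Hoxc5 overlaps one of Hoxc10, while Hoxc9 and Hoxc8 shared 30 and 12 with genes outside the cluster. Counts of Hoxc5 and Hoxc10 are uncertain to that extent.

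The libraries held 865832 to 2359317 reads on genes at E12.5 and 2784557 to 7249098 at later ages. CPM are reads per 1000000 reads on genes, scaled by TMM factors. Eed itself was at 29.4 ± 3.14 CPM (SD, n = 5) in control-MADM green cells at P0, at 15.5 ± 3.12 (n = 9) in Eed-MADM and at 11.6 ± 3.46 (n = 4) in cKO-Eed-MADM. These are reads over the whole gene, while the paper judged loss of Eed by reads in its deleted region alone. It also removed libraries with many reads in that region, and some of those may be among the libraries used here. At each age every cKO-Eed-MADM green library lay below every control-MADM one, with exact 2-sided permutation p of 0.00794, 0.0667, 0.0286 and 0.00794 from E12.5 to P0, the smallest that each design allows. Eed-MADM green cells at E12.5 ranged from 31.2 to 84.6 CPM of Eed, where replicates 1 and 7 (78.0 and 84.6) lay within the 75.2 to 152 of control-MADM. At E13.5, Eed-MADM green replicate 2 held 238 Eed reads among 4921672 reads on genes, and replicate 6 held 150 among 5281302. Control-MADM green libraries of that age held 336 among 5032714 and 381 among 6350596, and cKO-Eed-MADM green ones 71 to 124. Loss of Eed was thus less clear in replicate 2. E12.5 cells were collected in another buffer than cells of later ages, so that age and collection cannot be told apart there. One library, labelled cKO-Eed-MADM red replicate 1 at P0, stood apart with 13133 genes with a read, the fewest of all 92, and its Eed went against its label: it was at 33.3 CPM, against 5.51 to 16.1 in the other cKO-Eed-MADM libraries of that age and 25.4 to 36.5 in control-MADM of all colors. Results that rest on it are given with and without it.

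HoxC genes were nearly silent wherever Eed was intact. The 28 control-MADM libraries of all colors held 45 HoxC reads among 110944131 reads on genes, in 8 libraries, and 23 of these reads came from 1 library, red replicate 1 at E13.5, with 21 on Hoxc4 and 2 on Hoxc5. In the 14 red and yellow libraries of Eed-MADM 11 reads were found, in 2 libraries, and none at P0. By contrast, the 26 cKO-Eed-MADM libraries held 22143 HoxC reads and the 24 green Eed-MADM libraries 1686. In bulk samples, fewer cells that use a gene and less RNA of it per cell cannot be told apart.

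**Figure D1:**
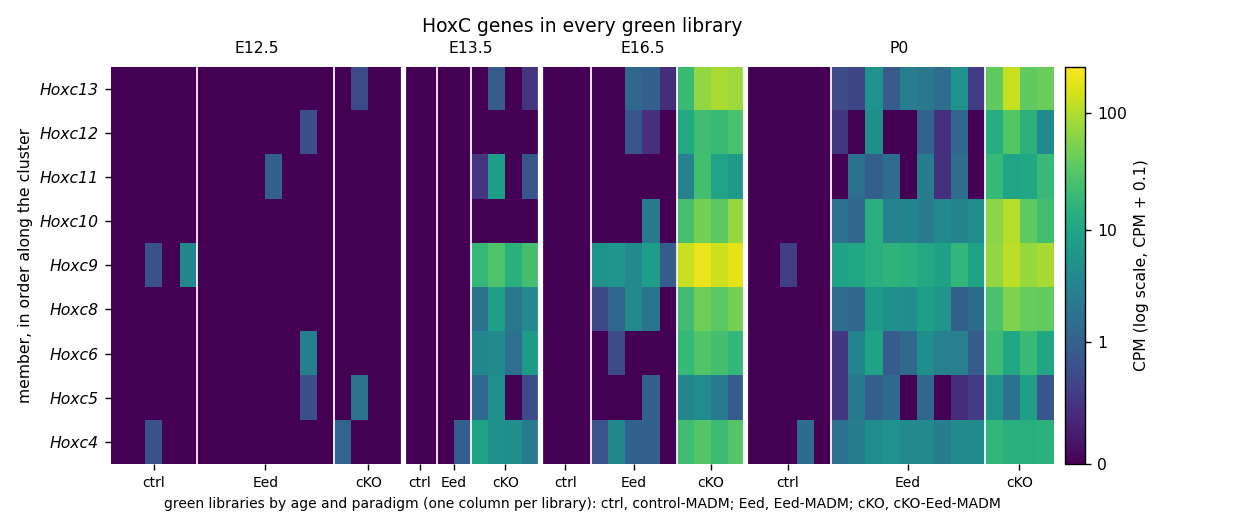
Heat map of CPM (log color scale, 0.1 added) of the 9 HoxC members, in cluster order, in each of the 55 green libraries by age and paradigm. Signal first appears in cKO-Eed-MADM at E13.5, mainly at Hoxc9, and at E16.5 and P0 every cKO-Eed-MADM library holds reads of all 9 members, while control-MADM libraries hold reads of at most 2.

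At E12.5 no HoxC gene could be called in any paradigm. The 17 green libraries held few reads of any member, the 8 Eed-MADM ones 9 reads together and the 5 cKO-Eed-MADM ones of all colors 7, against 11 in the 9 control-MADM libraries of all colors. No member passed the count minimum (a mean of more than 1 read), and the edgeR quasi-likelihood test called none of 18100 genes (0.0%) higher between cKO-Eed-MADM and control-MADM green cells, with 1282 at an unadjusted p under 0.05. HoxC change was thus not detectable at this depth.

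At E13.5 HoxC reads appeared in cKO-Eed-MADM green cells, led by Hoxc9, a gene of the thoracic trunk. Hoxc9 was at 18.4, 29.1, 14.3 and 24.4 CPM in the 4 cKO-Eed-MADM libraries and had no read in the 2 control-MADM and 2 Eed-MADM libraries. All 4 values lay above those of the other paradigms, at least 80.8-fold higher than control-MADM with 3 reads over the group as the floor (adjusted p = 0.0377, edgeR quasi-likelihood test, Benjamini-Hochberg over all genes) and at least 70.5-fold higher than Eed-MADM (0.0227). It was the only HoxC member called, 1 of 2 members tested in each comparison, where 0.0297% and 0.0149% of all genes tested were called higher. Hoxc9 passed the count minimum through the cKO-Eed-MADM libraries alone, so that nothing is read from this count against these shares. Both calls rest on few libraries. The first was lost without control-MADM replicate 1 or without cKO-Eed-MADM replicate 1, 2 or 5 (adjusted p 0.078 to 0.232). The second was lost without any of the 6 libraries it compares, with replicate numbers as a block (0.244), with the first strand column (0.123) and with the newer form of the test (0.0635). With all green libraries in the fit, which adds shallow ones, the second turned to a log2 difference of -0.82. Both comparisons use the same cKO-Eed-MADM libraries.

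The members towards the head from Hoxc9 were also seen at E13.5. Hoxc4, a gene of the neck region and the other member tested, was at 9.31, 4.99, 4.65 and 2.31 CPM in cKO-Eed-MADM, against no read in control-MADM and 0 and 0.947 CPM in Eed-MADM (adjusted p = 0.185 and 0.971). Hoxc6 and Hoxc8, genes of the brachial and thoracic trunk, were at 1.68 to 6.92 CPM and 1.77 to 8.11 CPM and had no read in either other paradigm. They fell below the count minimum and gave an exact 2-sided permutation p of 0.133 each against control-MADM, where 0.0667 is the smallest possible. Of the members towards the tail, Hoxc11 was at 7.90 CPM in replicate 2 and at 0 to 0.692 in the others, and Hoxc10 and Hoxc12 had no read in any of the 4 libraries, which allows up to 0.158 CPM over the group.

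At E16.5 all 9 members were read in every cKO-Eed-MADM green library. Hoxc9 was at 130.0, 200.6, 138.6 and 183.0 CPM in the 4 libraries and had no read in the 3 control-MADM libraries, at least 818-fold higher (adjusted p = 1.52e-07). Hoxc13, a gene of the tail, skin and hair, reached 20.5, 70.4, 91.9 and 80.6 CPM, and Hoxc10, a gene of lumbar motor neurons and the hindlimb, 25.9, 49.2, 34.8 and 72.9. Neither had a read in control-MADM, so that they were at least 330-fold (1.09e-05) and at least 229-fold (0.000111) higher. All 4 libraries lay above control-MADM for each of the 9 members, as they did for 11.4% of genes tested.

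All 8 HoxC members tested at E16.5 rose in cKO-Eed-MADM over control-MADM, where 6.16% of all 13359 genes tested were called higher. Members without control reads could pass the count minimum at E13.5, E16.5 and P0 only through the paradigms where they are high. The filter thus in part fixed this count and the other counts of members called between paradigms or colors at these ages. Nothing is read from them against the share of all genes. The others were Hoxc8 (22.6 to 48.1 CPM, at least 187-fold higher), Hoxc4 (21.03 to 30.9, at least 132-fold), Hoxc6 (17.7 to 29.7, at least 114-fold), Hoxc12 (11.1 to 26.6, at least 100-fold) and Hoxc11 (3.13 to 23.6, at least 53.7-fold), with adjusted p from 4.02e-05 to 0.00348. Hoxc5, below the count minimum, was at 0.806 to 4.27 CPM against no control read (exact permutation p = 0.0571, smallest possible 0.0286). The median over all genes tested was a log2 difference of 0.00.

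At P0 the same 8 members were higher in cKO-Eed-MADM, and 14.2% of all 14161 genes tested were called higher. Hoxc9 was at 70.0, 116.2, 73.5 and 90.6 CPM, against 2 reads in the 5 control-MADM libraries, both in replicate 4, a ratio of 1.2e+03 with a 95% counting interval of 332 to 9.92e+03 (adjusted p = 4.35e-13). Hoxc13 was at 37.2, 126.6, 36.5 and 42.0 CPM, at least 577-fold above controls without a read (6.63e-07). Hoxc10 (at least 545-fold), Hoxc8 (at least 380-fold), Hoxc12 (at least 151-fold), Hoxc6 (at least 149.7-fold) and Hoxc11 (at least 140.6-fold) rose as well, with adjusted p from 8.31e-08 to 0.000261. Hoxc4 had 7 control reads, all in replicate 5, and its 17.7, 14.2, 14.0 and 15.01 CPM were 52.7-fold above the control mean (log2 difference 5.75 ± 0.78 (SE), adjusted p = 6.55e-06). Hoxc5 was at 0.715 to 8.54 CPM and had no control read (exact permutation p = 0.00794, the smallest possible). Replicate 2 was the highest of the 4 for Hoxc13, Hoxc12, Hoxc10, Hoxc9 and Hoxc8 and the lowest for Hoxc11, so that the members did not move as 1 block between pools.

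The sparse Eed-/- cells of Eed-MADM also gave HoxC reads. At E13.5 the 2 green libraries held 5 reads, all on Hoxc4. With the shallow green libraries added at E13.5, Hoxc9 was above control-MADM by a log2 difference of 7.72 (adjusted p = 0.000619), so that its absence there rests on these 2 libraries. Of these, replicate 2 held 238 reads of Eed, beside 336 and 381 in the 2 control-MADM green libraries. Its cells may thus not all have lost Eed. At E16.5 Hoxc9 was at 5.52, 5.75, 3.82, 7.72 and 0.906 CPM in 5 libraries, all above the 3 control-MADM libraries without a read and at least 23.8-fold higher (adjusted p = 0.0101). Replicate 5 held the lowest HoxC sum, 1.09 CPM against at least 6.63 in the other 4. Hoxc9 was the only 1 of 8 members tested to pass in this comparison, with 0.24% of all genes called higher, and its call was lost without any one of the 3 control-MADM libraries (adjusted p 0.051 to 0.063). Hoxc8 and Hoxc4 gave adjusted p of 0.139 and 0.149, and both passed without Eed-MADM replicate 5 (0.038 and 0.0443).

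By P0, 7 of 8 HoxC members tested had risen in Eed-MADM green cells over control-MADM, where 1.52% of all genes were called higher. Hoxc9 ranged from 8.79 to 17.9 CPM with a median of 11.2 over 9 libraries, and every library lay above every control (ratio 181, 95% counting interval 49.8 to 1.5e+03, adjusted p = 1.03e-09). Hoxc10 ranged from 1.23 to 13.6 CPM with a median of 3.27 (at least 39.5-fold, 0.00075). Hoxc8 ranged from 1.04 to 8.43 CPM with a median of 4.48 (at least 38.3-fold, 0.000204). Hoxc4 ranged from 1.77 to 5.12 CPM with a median of 3.96, 12.5-fold above controls (log2 difference 3.67 ± 0.71, adjusted p = 0.00612). For their mean, Hoxc9 (12.2 ± 3.29 CPM, SD) and Hoxc4 (3.61 ± 1.06) varied less between pools than Hoxc10 (4.14 ± 3.71) and Hoxc8 (4.01 ± 2.80). With only the libraries of these 2 paradigms in the fit, 4 of 8 members passed.

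The remaining members were close to the limit of detection in Eed-MADM at P0. Hoxc6 (0.253 to 8.84 CPM, adjusted p = 0.00203), Hoxc13 (0.297 to 5.38, 0.0132) and Hoxc11 (0 to 2.60, 0.0417) passed, and Hoxc12 (0 to 4.80, 0.122) did not. Hoxc5, below the count minimum, was at 0 to 2.25 CPM (exact permutation p = 0.0584). The call of Hoxc11 was lost without any of the 5 control libraries (adjusted p 0.063 to 0.089), with replicate numbers as a block (0.0791), with the second strand column (0.0647) and with the newer form of the test (0.112). That of Hoxc13 was lost with no filter on low counts (0.0524), with the replicate block (0.0541), with the first strand column (0.0752) and with the newer form (0.117). That of Hoxc10 was lost with the newer form (0.0544). Replicate 3 held the highest level of Hoxc13, Hoxc12, Hoxc10 and Hoxc6 of the 9 libraries.

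Although green cells are Eed-/- in both paradigms, HoxC levels differed between them, and the ratio is given for each member. Whether members differ from each other in this ratio was not tested. At E16.5, 8 of 8 members tested were higher in cKO-Eed-MADM than in Eed-MADM, with 4.45% of all genes called higher. The ratio of mean CPM was 132 for Hoxc13 (log2 difference 6.90 ± 0.64, adjusted p = 2.42e-06), 116 for Hoxc12, 105 for Hoxc10, 34.4 for Hoxc9 (5.15 ± 0.36, 4.03e-07), 24.6 for Hoxc8 and 21.1 for Hoxc4. Hoxc11 had no Eed-MADM read and was at least 90.4-fold higher. Hoxc6 had 2, with a ratio of mean CPM of 237 and a ratio of reads pooled over libraries of 292 (95% counting interval 80.3 to 2.41e+03). The comparisons with controls use these same libraries, so the 3 are not independent.

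At P0 the same 8 members were again higher in cKO-Eed-MADM than in Eed-MADM, with 11.2% of all genes called higher, and the ratio fell along the cluster from Hoxc13 to Hoxc4. It was 28.5 for Hoxc13 (log2 difference 4.80 ± 0.53, adjusted p = 4.22e-06), 18.9 for Hoxc12, 15.6 for Hoxc11, 13.8 for Hoxc10, 7.16 for Hoxc9 (2.85 ± 0.24, 1.07e-08), 9.94 for Hoxc8, 5.41 for Hoxc6, 5.53 for Hoxc5 and 4.21 for Hoxc4 (2.08 ± 0.52, 0.00557). Hoxc5 was below the count minimum and gave an exact permutation p of 0.0168. Every cKO-Eed-MADM library lay above all 9 Eed-MADM libraries for 7 of 9 members, the exceptions being Hoxc12 and Hoxc5, while 5.77% of genes tested showed no overlap in this direction. The genes tested do not include Hoxc5, and members passed the count minimum through the groups where they are high. Nothing is read from this count against that share.

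**Figure D2:**
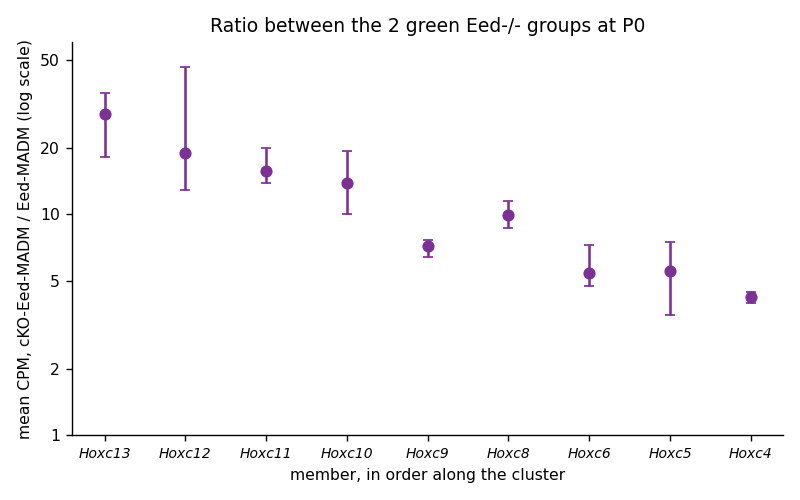
Ratio of mean CPM in cKO-Eed-MADM green cells (n = 4) to that in Eed-MADM green cells (n = 9) at P0 for each HoxC member in cluster order, on a log axis, with bars for the range when each of the 13 libraries was left out in turn. The ratio runs from 28.5 at Hoxc13 to 4.21 at Hoxc4.

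As a description across members, which share their libraries, the rank correlation of this ratio with order from Hoxc13 was -0.967 over 9 members at P0 and stayed between -0.983 and -0.900 when any of the 13 libraries was left out. At E16.5 it was -0.619 over the 8 members with Eed-MADM reads, and -0.786 to -0.429 with a library left out. Leaving out 1 library moved the ratio of Hoxc13 between 18.1 and 35.2, that of Hoxc9 between 6.38 and 7.64 and that of Hoxc4 between 3.96 and 4.44. These 3 ranges did not meet, but they show the weight of single libraries and are not confidence intervals. The ranges of neighbours did meet in most cases, as for Hoxc12 (12.8 to 46.1) and Hoxc11 (13.8 to 20.0).

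The shares of the HoxC reads come from the same reads and were not tested. The 4 members towards the tail, Hoxc10 to Hoxc13, made up 4.39% of HoxC reads in cKO-Eed-MADM green cells at E13.5 (0 to 14.5% between libraries), 34.9% at E16.5 (23.5 to 41.5%) and 45.5% at P0 (36.8 to 57.9%). In Eed-MADM green cells they made up 23.0% at P0 (14.0 to 41.7%). The ranges of the 2 paradigms at P0 overlapped. Hoxc9 alone held 56.9%, 42.1% and 29.1% of HoxC reads in cKO-Eed-MADM at the 3 ages, and 41.8% in Eed-MADM at P0.

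Levels between members were compared as CPM per kb of exon. Among green cells with signal Hoxc9 had the highest mean: at 8.88 CPM per kb in cKO-Eed-MADM at E13.5, at 67.1 at E16.5 and at 36.0 at P0, and at 5.03 in Eed-MADM at P0. In cKO-Eed-MADM at E16.5 the order after Hoxc9 was Hoxc13 (26.7), Hoxc10 (23.9), Hoxc12 (19.4), Hoxc8 (13.2), Hoxc4 (10.2), Hoxc6 (9.42), Hoxc11 (5.30) and Hoxc5 (0.903). All 4 libraries kept Hoxc9 above Hoxc13 there, but only 2 of 4 kept Hoxc13 above Hoxc10 and 2 of 4 Hoxc4 above Hoxc6. At P0 the lead of Hoxc9 over Hoxc10 (30.0) held in 2 of 4 libraries and was thus not beyond the spread. In Eed-MADM at P0, Hoxc10 (2.17), Hoxc8 (1.42) and Hoxc4 (1.41) followed Hoxc9, and Hoxc13 (0.864) stood behind 5 other members, where in cKO-Eed-MADM (24.6) it stood behind 2.

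**Figure D3:**
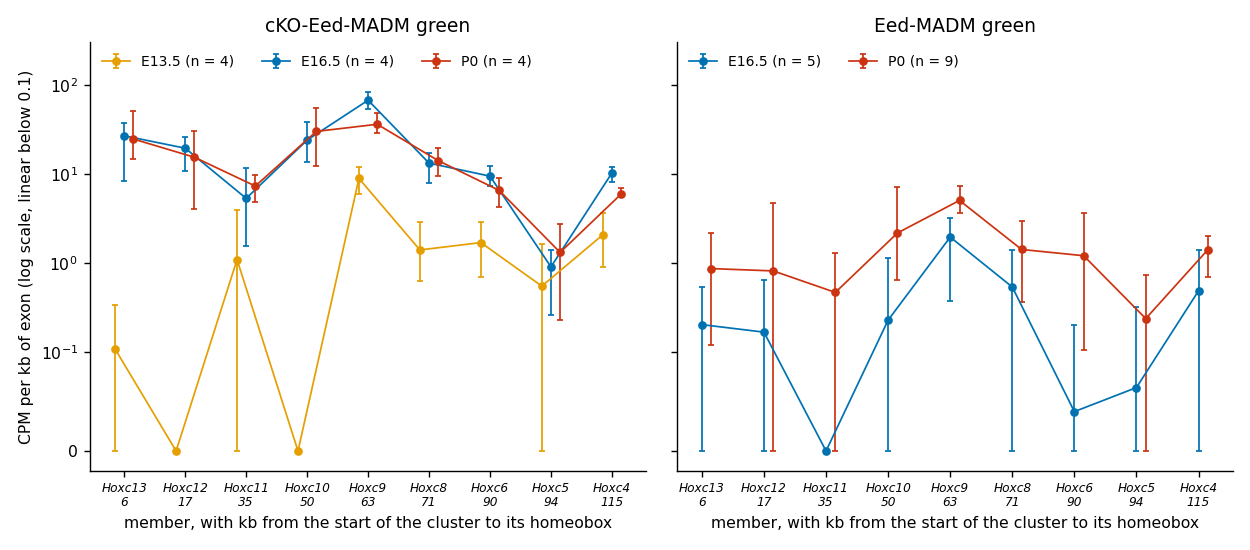
CPM per kb of exon for the HoxC members in cluster order, labelled with the distance in kb of each homeobox from the start of the cluster, in green cells of cKO-Eed-MADM (left, E13.5, E16.5 and P0) and Eed-MADM (right, E16.5 and P0). Points are means, bars run from the lowest to the highest library, and the axis is linear below 0.1 and logarithmic above. Hoxc9 has the highest mean in each series, and Hoxc13, Hoxc12 and Hoxc10 lie well above their E13.5 levels at E16.5 and P0.

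Changes between ages in cKO-Eed-MADM green cells were tested in 1 fit of all 55 green libraries. Members passed its count minimum, a mean of more than 1 read, through the Eed-/- groups where they are high. Nothing is read from the counts of members called between ages, in either paradigm, against the shares of all genes. From E12.5 to E13.5, 5 of 9 members rose (10.6% of all 20479 genes): Hoxc9 (at least 51.7-fold, adjusted p = 4.41e-08), Hoxc8 (at least 9.49-fold, 0.0022), Hoxc6 (at least 9.76-fold, 0.00355), Hoxc4 (ratio 19.1, 95% counting interval 5.14 to 160.0, 0.0114) and Hoxc11 (at least 5.28-fold, 0.0344). Of the 42 reads of Hoxc11 at E13.5, 38 were in replicate 2, and its call was lost without that library (0.315) or without any of the 4 libraries of E12.5 (0.067 to 0.0801). Red blood cell markers summed to 170.3 to 9.53e+04 CPM in these E12.5 libraries and to 6.14 to 47.001 at E13.5, and mesenchyme markers to 29.4 to 2027 and 7.09 to 13.4, whose part in these changes was not tested. From E13.5 to E16.5, 5 of 9 rose (3.32% of all genes), now with 3 of the 4 members towards the tail: Hoxc13 (log2 difference 7.80 ± 1.06, 1e-05), Hoxc10 (at least 290.0-fold, 1.45e-05), Hoxc12 (at least 127-fold, 0.000405), Hoxc9 (7.56-fold, log2 difference 2.91 ± 0.47, 8.97e-05) and Hoxc8 (9.43-fold, 0.0119). Hoxc13 had 5 reads at E13.5, 4 of them in replicate 2, and its log2 difference was 9.33 without that library. The call of Hoxc8 was lost without E13.5 replicate 3 (0.0588). Hoxc6, Hoxc4 and Hoxc11 had ratios of 5.57, 4.94 and 4.86 there (adjusted p 0.11, 0.112 and 0.272), and Hoxc11 passed without E13.5 replicate 2 (log2 difference 5.05, 0.0336). Whether the members differ from each other in their change with age was not tested. From E16.5 to P0 none of the 9 was called higher by edgeR or DESeq2 or had an unadjusted p under 0.05 in edgeR (4.22% of all genes called higher), with Hoxc9 at 0.537 of its E16.5 level (0.253).

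In Eed-MADM green cells 2 members rose between E13.5 and E16.5, Hoxc9 (at least 15.5-fold, adjusted p = 0.000218) and Hoxc8 (at least 4.97-fold, 0.0411), where 3.05% of all genes did. The call of Hoxc8 was lost without either E13.5 library or without E16.5 replicate 3 or 4 (0.0612 to 0.294). Whether the paradigms differ in the timing of the rise was not tested. Between E16.5 and P0, Hoxc9 (2.58-fold, 0.0193), Hoxc10 (9.51-fold, 0.012), Hoxc11 (at least 7.95-fold, 0.0184) and Hoxc6 (ratio 37.7, 95% counting interval 10.2 to 315, 0.00194) rose, 4 of 9 where 6.02% of all genes did. The call of Hoxc9 was lost without E16.5 replicate 3 (0.0584) or 5 (0.0816). For the difference between cKO-Eed-MADM and control-MADM, the interaction between P0 and E16.5 passed for none of the 9 members (adjusted p of at least 0.577, with only Hoxc4 at an unadjusted p under 0.05, 0.0258). In the higher direction 0.0488% of all genes passed. For HoxC this test cannot decide whether the difference changed with age. Control-MADM green cells had no HoxC read at E16.5, and at P0 only 2 of Hoxc9 and 7 of Hoxc4.

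Color separated HoxC levels in Eed-MADM at P0, where it marks the Eed genotype. Green and red cells also differ in the parental origin of part of chromosome 7, so that genotype and origin cannot be told apart between these 2 colors of Eed-MADM. At E13.5 green cells held 5 HoxC reads and red cells 10, so that color did not separate them there. In Eed-MADM at P0 the green libraries had HoxC sums of 15.2 to 59.4 CPM, and the 2 red (Eed+/+) and 2 yellow (Eed+/-) libraries had no HoxC read. Hoxc9 was at least 45.9-fold higher in green than in red (adjusted p = 0.0251, 0.0917% of all genes called higher) and at least 42.9-fold higher than in yellow (0.0411, 0.127% of all genes). Both calls were lost when any of the compared red or yellow libraries was left out, and Hoxc9 was the only member to pass of the 8 tested.

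In cKO-Eed-MADM, no member was called between green and red at E13.5, E16.5 or P0, or between green and yellow at E13.5 or P0 (0.0% of all genes), by edgeR or DESeq2, and none reached an unadjusted p under 0.05. At E13.5, 0.0523% of all genes were called higher in green than in red. At E16.5 the HoxC sum was 341 and 415 CPM in the 2 red libraries and 258, 376, 467 and 476 in the 4 green ones, and the ratio of green to red ran from 0.812 to 1.60 over the members tested (all adjusted p = 1, 0.0828% of all genes called higher). At P0 the ratio ran from 0.979 to 2.12 with adjusted p of at least 0.625 (2.36% of all genes called higher). This changed to 4 members called at P0 when red replicate 2 was left out, which leaves only red replicate 1, and stayed at 0 without red replicate 1.

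The library labelled cKO-Eed-MADM red replicate 1 at P0, whose Eed stood at 33.3 CPM beside 29.4 ± 3.14 in control-MADM green cells, also stood apart in its HoxC reads. It had 266 reads of Hoxc10, 213 of Hoxc8 and 93 of Hoxc13, but 6 of Hoxc9, 3 of Hoxc12 and none of Hoxc11, Hoxc6, Hoxc5 and Hoxc4. Red replicate 2 held 278, 164, 227, 485, 70, 70, 74, 22 and 76 reads of these members in the same order. The HoxC sum was 131 CPM in replicate 1, 299 in replicate 2, 270.0 in the single yellow library and 244 to 470 in green. Replicate 1 also held 2358 CPM of red blood cell markers, 2150 of interneuron markers and 916 of mesenchyme markers, whose part in its HoxC values was not tested.

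**Figure D4:**
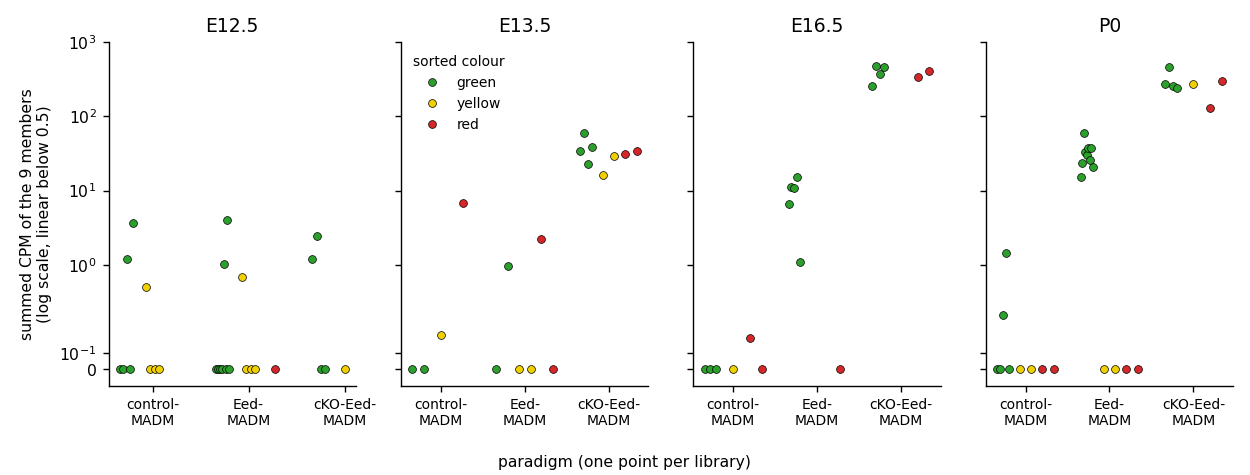
Summed CPM of the 9 HoxC members in each of the 92 libraries, by paradigm and color at 4 ages, with an axis that is linear below 0.5 and logarithmic above. All colors of cKO-Eed-MADM lie between 131 and 476 CPM at E16.5 and P0, while in Eed-MADM only green libraries stand above 1 CPM at these ages.

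Red and yellow cells of cKO-Eed-MADM gave the comparison with control-MADM in libraries that the green comparison did not use. The labels do not say whether colors came from the same pools, so that these libraries need not come from other animals. Where a group had 1 library, the spread was taken from the other groups of the fit, so that such counts say nothing of the spread between its own pools. At E16.5, 8 of 8 members tested were higher in red cKO-Eed-MADM cells (n = 2) than in red control-MADM cells (n = 2), among them Hoxc9 (at least 511-fold, adjusted p = 7.51e-07), where 3.02% of all genes were called higher. At P0, 5 of 8 were higher in red (1.91% of all genes), 7 without cKO-Eed-MADM red replicate 1 and 4 without replicate 2, and 6 in yellow (3.48%), where cKO-Eed-MADM had 1 library. Against Eed-MADM red cells, which are Eed+/+, Hoxc9 was higher at E13.5 (at least 46.5-fold, 0.0179, 0.389% of all genes), a call that did not last when any of the 4 libraries was left out. At E16.5 and P0, 6 of 8 members were higher in that comparison (0.911% and 2.03% of all genes), 7 at P0 without cKO-Eed-MADM red replicate 1, with 1 Eed-MADM red library at E16.5. In yellow cells, which are Eed+/- in Eed-MADM, Hoxc9 was higher at E13.5 (at least 30.2-fold, 0.048, 0.0374% of all genes) and 5 members were higher at P0 (1.16%), where 1 cKO-Eed-MADM library was compared.

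Transcripts other than the members were sparse within the cluster. Hotair, a long noncoding RNA on the opposite strand between Hoxc12 and Hoxc11, was at 3.55, 2.73, 4.87 and 1.41 CPM in cKO-Eed-MADM at E16.5 and had no read in the other paradigms (exact permutation p = 0.0571 against control-MADM and 0.00794 against Eed-MADM). At P0 it was at 3.25, 6.57, 9.12 and 5.72 CPM, against 0 to 1.92 CPM in Eed-MADM (14.4-fold, exact permutation p = 0.0014). Mir196a-2 had 2 reads in all libraries together and Mir615 none, in libraries that were not made to capture small RNAs.

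The genes on either side of the cluster did not share the rise. Atf7, Atp5g2 and Calcoco1 precede Hoxc13, and Smug1, Cbx5 and Hnrnpa1 follow Hoxc4. None of the 6 was called between cKO-Eed-MADM and control-MADM at E16.5 or P0, with log2 differences at P0 between -0.52 ± 0.22 (Hnrnpa1, adjusted p = 0.0828) and 0.03 ± 0.42 (Atp5g2, 0.964). Against Eed-MADM, Atf7 fell by 0.98 ± 0.25 on the log2 scale at E16.5 (0.0178) and Hnrnpa1 by 0.61 ± 0.20 at P0 (0.0323).

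Genes of the other 3 Hox clusters were read in the same comparisons. Between cKO-Eed-MADM and control-MADM at E16.5, 6 of the 11 HoxA, 6 of the 10 HoxB and 4 of the 9 HoxD genes passed the count minimum, and all of these were higher. At P0, 6 of 11, 5 of 10 and 5 of 9 passed it, and all were higher, while in Eed-MADM 5, 4 and 2 of these were. As for HoxC, genes without control reads passed the minimum only where they are high, and nothing is read from these counts. Over all 92 libraries and 20417 genes, those whose log2(CPM + 0.5) was most like the mean of the 9 members were Hoxa9 (Pearson r = 0.960), Hoxd3os1, a noncoding transcript of the HoxD cluster (0.957), Hoxa7 (0.954), Hoxb5 (0.941) and Hoxb13 (0.939). These correlations describe libraries that share paradigm, age and depth. At P0 Hoxb13 was at 154.6 ± 59.4 CPM in cKO-Eed-MADM (n = 4) and at 17.7 ± 5.84 in Eed-MADM (n = 9), and had no read in control-MADM. Among the HoxC members themselves the pairwise r ran from 0.592 to 0.963 over 36 pairs, with a median of 0.843.

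Genes that act with HoxC proteins or on Hox clusters moved in both directions. For the comparison of cKO-Eed-MADM with control-MADM, 2.42% of all genes tested were called lower at E16.5 and 10.0% at P0, beside the 6.16% and 14.2% called higher. Of 9 TALE genes, whose products bind DNA together with Hox proteins, 3 rose and 1 fell at E16.5 between cKO-Eed-MADM and control-MADM, and 1 rose and 2 fell at P0. At P0 these included Meis2 (log2 difference -1.80 ± 0.15, adjusted p = 5.42e-09) and Pbx3 (1.27 ± 0.29, 0.0019), and the median was -0.15 against -0.01 over all genes. Of 12 PRC2 subunits 1 fell at E16.5, and at P0 Epop rose while Ezh2, the methyltransferase, Eed, Rbbp4 and Mtf2 fell, Ezh2 from 214 ± 20.2 to 115 ± 11.1 CPM (-0.89 ± 0.15, 0.000138), with a median of -0.46. Of 6 trithorax and demethylase genes, which act against PRC2, none was called at E16.5, and Kdm6b, a demethylase of lysine 27 (-0.83 ± 0.16, 0.000383), and Kmt2b (-0.51 ± 0.15, 0.0164) fell at P0, with a median of -0.29. Among Cdx and retinoid genes, known inputs to Hox use, 2 of 3 tested rose at both ages. At P0 these were Rara, a retinoic acid receptor (1.97 ± 0.30, 2.86e-05), and Aldh1a2, an enzyme that makes retinoic acid (3.47 ± 0.95, 0.00893). In Eed-MADM at P0, no TALE or trithorax gene, 1 PRC2 subunit (fell) and 1 retinoid gene (rose) were called.

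Markers of several cell types also changed in cKO-Eed-MADM green cells, not all in the same direction at E16.5 and P0. Genes of the cortical projection lineage were present throughout, but 6 of 11 fell and 1 rose at E16.5, with sums of 3619 to 3952 CPM in control-MADM and 1629.9 to 1761 in cKO-Eed-MADM, and 7 of 11 fell at P0, among them Neurod2 (log2 difference -2.67 ± 0.20, adjusted p = 1.25e-09) and Lhx2 (-1.85 ± 0.15, 5.42e-09). Their sum at P0 was 2162 to 2743 CPM in control-MADM and 810.5 to 1033 in cKO-Eed-MADM, and none was called in Eed-MADM. All 5 microglia genes tested rose at P0, with sums of 132 to 302 CPM in cKO-Eed-MADM, 6.92 to 29.9 in control-MADM and 1.27 to 113 in Eed-MADM. All 4 mesenchyme and meninges genes tested rose as well, with sums of 94.4 to 192 CPM against 8.24 to 14.4 and 7.48 to 24.9. At E16.5, 2 of 5 microglia genes tested rose (sums of 9.87 to 57.2 CPM against 3.73 to 4.82 in control-MADM), as did 1 of 3 mesenchyme genes (13.8 to 30.2 against 4.12 to 8.34). Interneuron genes rose at E16.5 (5 of 6, with sums of 250.4 to 499.6 CPM against at most 34.5) and 4 of 6 fell at P0. In Eed-MADM 1 of the 6 fell against control-MADM at P0. The 5 red blood cell genes tested gave 1 rise at E16.5 and none at P0, and the single endothelium gene tested at P0 was not called. The part of these cells in the HoxC values was not tested.

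Because HoxC genes are used in the spinal cord, markers of spinal motor neurons were read as well. At E12.5, 3 of 5 passed the lower count minimum and none was called. Isl1 was then at 41.2 ± 43.8 CPM in cKO-Eed-MADM, 97.1 ± 216 in Eed-MADM and 9.71 ± 14.8 in control-MADM. From E13.5 on, Isl1 was the only 1 of 5 to pass. At E16.5 it was at 69.5 ± 30.3 CPM in cKO-Eed-MADM and had no read in control-MADM. At P0 it was at 36.4 ± 15.1 CPM in cKO-Eed-MADM and at 0.364 ± 0.814 in control-MADM (log2 difference 6.51 ± 0.91, adjusted p = 1.55e-05), with 3.78 ± 2.37 in Eed-MADM. The other genes of the list were low at E16.5 and P0 and were not tested there. In cKO-Eed-MADM, Chat was at 0 to 0.403 CPM at E16.5 and 0 to 1.62 at P0, Slc5a7 at 0 and at 0 to 1.36, Lhx3 at 0 and at 0 to 0.346, and Mnx1 at 0 to 1.46 and 1.36 to 4.5. At P0 Mnx1 had a read in 4 of 4 cKO-Eed-MADM and 0 of 5 control-MADM green libraries, Slc5a7 in 3 and 0, Chat in 3 and 2, and Lhx3 in 2 and 0.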

How the data were processed

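Each of 116 libraries had a table of read counts on genes, which the authors made with STAR (submitters' processing notes; mm10, GRCm38), leaving out reads that align to several places. The STAR version and annotation release are not given in the sources used here. The counts of the deposited files are not normalized. Of their 3 columns of counts the unstranded one was used, since each strand held 48.7% to 51.4% of the stranded sum. Reads in no gene or in several genes (13.4% to 40.4% of unique reads in the 92 libraries used) were kept out of library sizes. Symbols and coordinates were taken from GENCODE M21, which matched 53274 of 53379 genes. Groups and replicate numbers came from the labels.

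Counts were normalized by TMM and tested by quasi-likelihood in edgeR 4.0.16 under R 4.3.3, with robust estimation in the form of version 3, with Benjamini-Hochberg adjustment over all genes and a threshold of 0.05. Fits were made per age for green libraries, per age for all colors, and over ages, keeping genes whose mean count exceeded 10, or 1 at E12.5 and in the fit over ages. Members below that minimum were compared by a 2-sided exact permutation test of mean CPM. A fold against a group without reads was computed against 3 reads over the group. With 1 to 3 reads the ratio of reads pooled over libraries is given with an exact 95% interval, which covers counting error only. Reads without molecular identifiers are not independent molecules. Among 146 replicate pairs none agreed within sampling noise (lowest chi-square per gene 5.52). Alternatives were DESeq2 1.42.0, its size factors, other count minimums, all libraries, only the groups compared, a replicate block, either strand, a threshold of 0.1 and leaving out libraries. The newer quasi-likelihood form and leaving out libraries in the fit over ages were added after seeing the data. The scripts were tested on simulated data. The members and lists were chosen with earlier results of these data known. Named genes are the 9 members, the genes inside and next to the cluster, Eed, up to 3 genes of each list with the lowest adjusted p at P0, and the 5 genes most like the members. The motor neuron markers below the count minimum were added to these after their values were seen. Some genes that this rule names are not reported here.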

Additional observations from a re-analysis of the deposited data

Results flagged for a closer look

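Dixon's criterion, which marks a library far from the others, flags about 1 in 20 groups by chance if values are normally distributed. Counts near 0 are not, and a group with reads in only 1 library is flagged in any case, so that no excess over chance is read here. Of 57 groups of 4 to 10 libraries tested, 9 had such a library. In cKO-Eed-MADM green cells these were Hoxc11 in replicate 2 at E13.5 (7.90 CPM, the others at 0 to 0.692), Hotair in replicate 3 at E13.5 (2.23 CPM), and Hoxc13 (126.6 CPM) and the HoxC sum (469.6 CPM) in replicate 2 at P0. In Eed-MADM green cells these were Hoxc10 in replicate 4 (2.18 CPM, the others without a read) and Hoxc4 in replicate 2 (3.59 CPM) at E16.5. Replicate 3 at P0 was flagged 3 times, for Hoxc12 (4.80 CPM), Hoxc10 (13.6 CPM) and Hotair (1.92 CPM). All of these libraries were kept in the comparisons.

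Of the 24 libraries left out for low depth or alignment, 6 held more than 3 HoxC reads and more per 1000000 reads on genes than the highest control-MADM library used of their age. The value was 30.2 in cKO-Eed-MADM yellow replicate 1 at P0, from 143 reads of 4732515, which failed only by its 55.9% of uniquely aligned reads. The other 5 were shallow. Eed-MADM green replicates 3, 4 and 7 at E13.5 gave 437.2 (26 reads of 59471), 98.6 (4 reads of 40548) and 217.2 (7 reads of 32233). Control-MADM green replicate 4 at E13.5 gave 85.3 from 4 reads of 46866, so that a few reads at this depth also occur where Eed is intact. Eed-MADM yellow replicate 3 at E12.5 gave 262.7 from 4 reads of 15225. Another 2 exceeded that level with at most 3 reads, cKO-Eed-MADM green replicate 4 (49.4, 3 reads) and Eed-MADM green replicate 1 (35.9, 1 read) at E13.5.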

How the results depend on the processing

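The counts of members called in cKO-Eed-MADM against control-MADM and against Eed-MADM, green, at E16.5 and P0 stayed within 1.5 times of the values given under every alternative run. At E13.5 cKO-Eed-MADM against control-MADM gave 2 members with DESeq2 and 0 to 1 with a library left out. Against Eed-MADM at E13.5 it gave 0 with all green libraries, the first strand column, the newer quasi-likelihood test or any library left out, and with all green libraries the log2 difference of Hoxc9 reversed to -0.82. Eed-MADM against control-MADM gave 1 at E13.5 with all green libraries. At E16.5 it gave 3 with DESeq2 or no filter, 0 with only the groups compared or the newer test, and 0 to 3 with a library left out, and at P0 4 with only the groups compared or the newer test. At E16.5 Eed itself was 0.11 higher (log2) in cKO-Eed-MADM than in Eed-MADM green cells, which turned to -0.0098 with the first strand column and ranged from -0.14 (without cKO-Eed-MADM green replicate 2) to 0.25 with a library left out. Between E13.5 and E16.5 in Eed-MADM green cells, 1 to 2 members were called with a library left out in the fit over ages.

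Among colors, control-MADM green against red at E13.5 gave 1 fall with DESeq2. Eed-MADM green against red gave 1 at E16.5 with no filter or all libraries (0 to 1 with a library left out), and 3 at P0 with DESeq2 or no filter (0 with a library left out). Eed-MADM green against yellow at P0 gave 6 with DESeq2, 3 with no filter and 0 with a library left out. cKO-Eed-MADM green against red at P0 gave 0 to 4 with a library left out. cKO-Eed-MADM against control-MADM gave, in red, 1 at E13.5 with DESeq2 or no filter, 5 to 8 at E16.5 and 3 to 7 at P0 with a library left out, and in yellow 3 to 6 at P0. Against Eed-MADM, red gave 0 at E13.5 with all libraries or a library left out, 2 to 4 at E16.5 and 3 to 7 at P0, and yellow gave 0 with all libraries and 0 to 1 with a library left out at E13.5, and 3 at P0. Thinned to 865832 reads, Eed-MADM green libraries at P0 held 6.33 members with a read in place of 8.00. The cause of these changes was not tested, other than that leaving out libraries leaves fewer samples.

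Same-numbered green libraries did not deviate together throughout (E13.5: 0 of 3 pairs over 0.1, P0: 3 of 12). Between colors at E12.5, 3 of 4 pairs of control-MADM and 2 of 3 of Eed-MADM lay over 0.1. At E13.5 it was 0 of 6 in cKO-Eed-MADM and 0 of 4 in Eed-MADM, and at P0 1 of 6 in control-MADM and 1 of 6 in Eed-MADM. Whether the numbers pair colors of a pool at E12.5 cannot be told from this, and the main fits did not pair them. With the replicate block, cKO-Eed-MADM against Eed-MADM gave 0 at E13.5 in green, red and yellow and 0 at P0 in yellow, Eed-MADM green against red gave 1 at E16.5 and 0 at P0, green against yellow 0 at P0, and yellow cKO-Eed-MADM against control-MADM 3 at P0, and no other count moved by over 1.5 times.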
